A study of Mus musculus with 12 samples.

Results

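The genes described here are 10 members of the Nrf2 pathway and of glutathione metabolism: the regulators Nfe2l2 and Keap1 and the target genes Hmox1, Gclm, Gclc, Txnrd1, Srxn1, Nqo1, Gsta4 and Gstm1. They were chosen by symbol, taking every probe set whose platform annotation gave a member as its only gene. All 10 members were found, each with exactly 1 such probe set, among 19937 genes and 34760 probe sets. The question asked of them was how they differ between the 4 lines of the series, and how Hmox1 moves relative to the other 7 target genes.

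The cells were 4T1, a mouse mammary carcinoma line of BALB/cfC3H background, in 4 stable derivatives with 3 cultures and 3 arrays each. The ΔSAP, mutB1 and FL lines are named for constructs of Mkl1, a coactivator of serum response factor now called Mrtfa, and FL is read here as full length. The fourth line is labelled control, and all 4 lines shared the same 48 h in 0.03% serum before RNA was taken. Each construct is represented by a single stable line, so an effect of the construct and a property of that line cannot be told apart, and the p-values measure only the spread between cultures of a line.

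Nrf2, the product of Nfe2l2, is a transcription factor that Keap1 holds at a low level by presenting it to a ubiquitin ligase. Oxidants and electrophiles modify Keap1, whereupon Nrf2 accumulates, pairs with small Maf proteins and binds antioxidant response elements in genes for glutathione synthesis, thioredoxin recycling and detoxication. Much of this control acts on the protein, which RNA arrays do not measure. Hmox1, the inducible haem oxygenase, is one of these targets but is also known to answer to the repressor Bach1 and to several other stress-responsive factors.

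The values are log2 expression values, on which a difference of 1 is a factor of 2. Array medians lay between 6.35 and 6.45, the correlation over all probe sets was 0.995 to 0.997 within a line and 0.988 to 0.995 between lines. Mrtfa itself averaged 11.92 in ΔSAP, 11.29 in mutB1 and 12.08 in FL, against 9.27 in control. It was 0.79 ± 0.06 lower in mutB1 than in FL (SE, adjusted p = 2.79e-06), and where its probes lie with respect to the changes made in mutB1 and ΔSAP is not known here. A line mean under the lowest array median is called low below, since its signal may be background. Of 12 epithelial markers, 10 were above that level in ΔSAP, 7 in mutB1, 9 in FL and 8 in control, and their summed linear signal per array was 30066 to 30536 in ΔSAP, 17360 to 18123 in mutB1, 22509 to 23103 in FL and 24385 to 25027 in control. Krt8 and Krt18, the brightest of them in every line, weigh most in this sum. Marker by marker, 5 of the 12 were higher and 2 lower in FL than in control at an adjusted p of at most 0.01, with a median change of 0.06. The epithelial adhesion gene Cdh1 averaged 10.69 in ΔSAP, 8.08 in mutB1, 10.30 in FL and 9.65 in control. Of 10 leukocyte markers only Cd68 and Cd14 were above it in any line, while Ptprc, Adgre1, Csf1r and the other 5 were low in every line. None of the 3 measured erythroid markers was above it, and of 6 endothelial markers only Eng was. Of 10 fibroblast markers, 6 were above it in ΔSAP and 7 in each other line, and Pdgfrb was 3.45 higher in mutB1 than in control (SE 0.10, adjusted p = 3.9e-09). Fbln1 was also higher there, by 2.61 (adjusted p = 2.51e-10). The other 8 had an adjusted p above 0.01, and the median change of the 10 was -0.02. The part of these differences in the results below was not tested, and in RNA from whole cultures fewer cells of a type and less RNA per cell cannot be told apart.

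A gene is said to have risen or fallen where its adjusted p in limma, over all 34760 probe sets, was at most 0.01. In FL against control, 4 of the 10 members rose (Hmox1, Gclm, Gclc and Txnrd1) and 3 fell (Gstm1, Gsta4 and Nqo1), where 9.61% of all probe sets rose and 10.4% fell. In ΔSAP against control 2 rose (Hmox1 and Gclm) and 3 fell (Gstm1, Srxn1 and Gsta4), where 6.96% of all probe sets rose and 7.83% fell. In mutB1 against control 2 rose (Gclc and Keap1) and 3 fell (Gsta4, Gstm1 and Srxn1), where 5.83% of all probe sets rose and 6.89% fell. With each gene represented once, as the members are, the shares rising and falling were larger. They were 12.6% and 15.0% in FL, 9.38% and 11.7% in ΔSAP, and 8.34% and 10.4% in mutB1. These 3 comparisons share the control arrays. The target genes thus moved in both directions in every construct line. Their median change was 0.15 in FL, -0.09 in mutB1 and 0.03 in ΔSAP. For all 10 members the median change was 0.01 in FL, -0.03 in mutB1 and -0.01 in ΔSAP. Over all 19937 genes the medians were -0.03, -0.01 and -0.06 in the same order of lines.

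**Figure D1:**
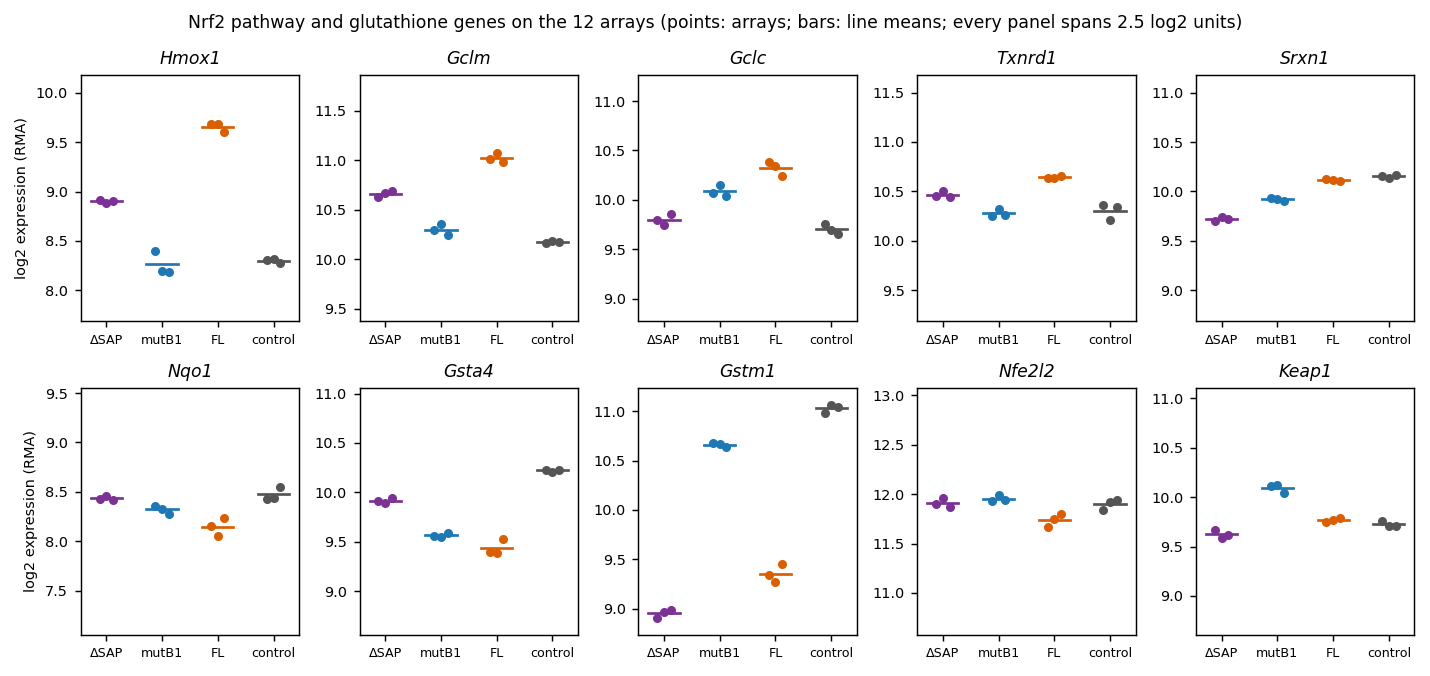
Log2 expression of the 10 genes on every array, 1 panel per gene, with ΔSAP, mutB1, FL and control from left to right; points are arrays, bars are means of 3 arrays, and each panel spans the same height on the log2 axis, though its position differs. Hmox1 lay between 9.60 and 9.68 on the FL arrays and Gstm1 between 8.91 and 8.98 on the ΔSAP arrays, while Nfe2l2 stayed between 11.66 and 11.99 over all 12.

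Among the lines that carry a construct, 3 members were higher in mutB1 than in FL (Gstm1, Keap1 and Nfe2l2) and 5 were lower (Hmox1, Gclm, Txnrd1, Gclc and Srxn1), where 9.0% of all probe sets were higher and 8.82% lower. In ΔSAP against FL, 2 members were higher (Gsta4 and Nqo1) and 5 lower (Hmox1, Gclc, Gstm1, Srxn1 and Gclm), beside 5.7% and 5.73% of all probe sets. In ΔSAP against mutB1, 3 were higher (Hmox1, Gclm and Gsta4) and 4 lower (Gstm1, Keap1, Srxn1 and Gclc), beside 7.07% and 8.0%. Counted once per gene, the shares higher and lower were again larger. They were 12.9% and 12.1% in mutB1 against FL, and 8.35% and 8.37% in ΔSAP against FL. For ΔSAP against mutB1 they were 10% and 11.6%. With the filters that the series design states, which also ask for 2-fold change and an average level of 4 on the log2 scale, Hmox1 and Gstm1 passed in mutB1 against FL (1.6% of probe sets), no member passed in ΔSAP against FL (0.503%), Hmox1 and Gstm1 passed in FL against control (1.83%), none passed in mutB1 against control (1.21%), and Gstm1 alone passed in ΔSAP against control (1.34%) and in ΔSAP against mutB1 (1.42%). The counts of 0 are due to the fold filter, since 7 and 5 members passed the adjusted p in those comparisons.

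**Figure D2:**
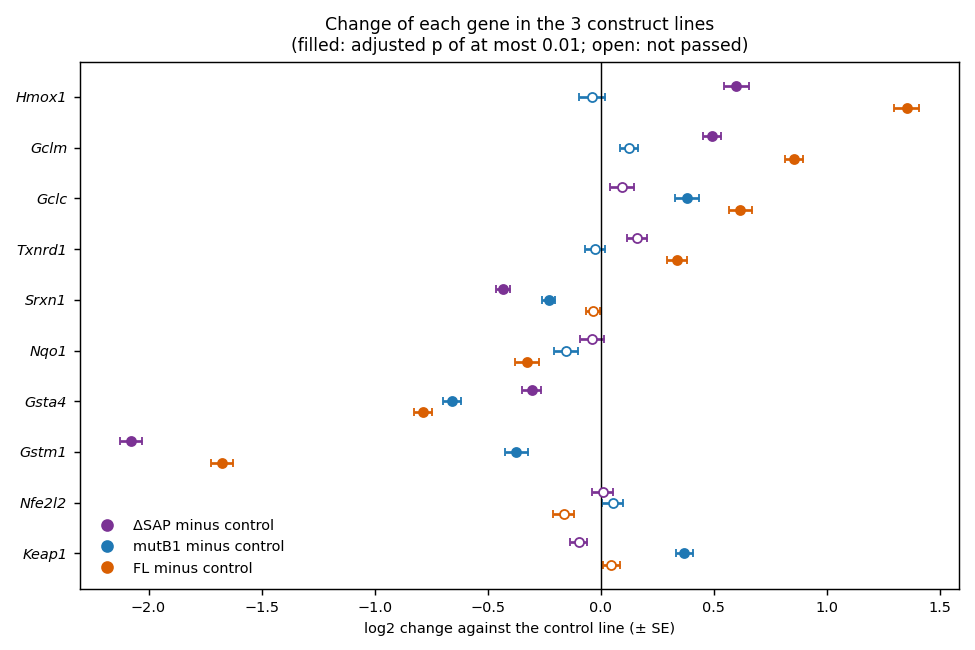
Log2 change of each gene against the control line, with its SE, for ΔSAP, mutB1 and FL from top to bottom within a gene; filled points have an adjusted p of at most 0.01 and open points do not. Hmox1 stood at 0.60 in ΔSAP, -0.04 in mutB1 and 1.35 in FL, and Gstm1 at -2.08, -0.37 and -1.68.

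The start regions of 4 target genes are shown because they span the range of these patterns: Gclm and Txnrd1 rose with Hmox1 in FL, Srxn1 did not, and Gstm1 fell. The antioxidant response element was searched on both strands as TGACNNNGC in the 300 bases from 250 before to 50 after each RefSeq start (assembly GRCm38.p6), and it is printed in capitals; where it lies on the opposite strand, its reverse complement appears. Positions count from the start site, whose first base is 1 and the base before it -1.
Gclm, chr3:122245307-122245606, plus strand: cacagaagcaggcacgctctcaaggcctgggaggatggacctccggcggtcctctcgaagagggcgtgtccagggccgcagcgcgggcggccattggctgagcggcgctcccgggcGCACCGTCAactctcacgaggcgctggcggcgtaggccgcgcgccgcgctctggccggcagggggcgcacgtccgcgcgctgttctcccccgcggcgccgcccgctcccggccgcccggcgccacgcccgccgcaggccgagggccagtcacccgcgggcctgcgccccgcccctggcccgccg
Txnrd1, chr10:82858956-82859255, plus strand, 1 of 3 starts: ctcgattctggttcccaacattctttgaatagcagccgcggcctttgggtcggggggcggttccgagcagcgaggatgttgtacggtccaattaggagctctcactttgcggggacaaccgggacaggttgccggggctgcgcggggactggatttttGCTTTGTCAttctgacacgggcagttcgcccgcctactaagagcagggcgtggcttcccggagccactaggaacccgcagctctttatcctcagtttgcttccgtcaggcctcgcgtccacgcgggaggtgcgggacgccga
Srxn1, chr2:152105274-152105573, plus strand: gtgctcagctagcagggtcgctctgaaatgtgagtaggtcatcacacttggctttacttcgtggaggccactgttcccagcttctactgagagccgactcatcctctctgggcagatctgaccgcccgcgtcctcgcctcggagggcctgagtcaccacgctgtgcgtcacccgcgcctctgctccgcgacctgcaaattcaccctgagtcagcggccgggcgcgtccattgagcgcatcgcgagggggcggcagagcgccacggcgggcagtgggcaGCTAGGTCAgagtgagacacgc
Gstm1, chr3:108017924-108018223, minus strand, 1 of 2 starts: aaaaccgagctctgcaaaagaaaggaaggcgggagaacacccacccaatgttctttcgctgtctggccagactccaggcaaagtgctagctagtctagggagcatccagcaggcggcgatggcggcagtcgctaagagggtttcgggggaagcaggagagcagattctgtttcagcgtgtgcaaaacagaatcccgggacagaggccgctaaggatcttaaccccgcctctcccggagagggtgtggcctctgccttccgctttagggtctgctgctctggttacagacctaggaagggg
The match lay at -134 to -126 in Gclm (TGACGGTGC on the opposite strand), at -92 to -84 in Txnrd1 (TGACAAAGC, opposite strand) and at 29 to 37 in Srxn1 (TGACCTAGC, opposite strand). Srxn1 also held the AP-1 motif TGANTCA at -102 to -96 and at -45 to -39, neither inside a match of TGACNNNGC. The second of these is followed by gc and so reads TGAGTCAGC. The search required TGAC and did not count it, and other spellings of the element were not searched. Neither Gstm1 window held the element. Of the 10 members, 7 had a window in the RefSeq table (10 windows in all), and the element was present in 4 of these 7 members, the fourth being Nfe2l2 at -240 to -232 (TGACTCCGC), and absent from the windows of Gstm1, Nqo1 and Keap1. Counted by window, it was in 4 of the 10, and the other Txnrd1 windows lacked it. For comparison, 12.4% of all 32851 windows held the element, 7.81% the AP-1 motif and 0.454% an element with an AP-1 match inside it. The CArG box bound by serum response factor was in none of the members' windows and in 1.63% of all windows. A match in such a window is a description of its letters, and the element is known to lie far upstream of several of these genes. Hmox1, Gclc and Gsta4 were not matched to a window.

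Among the regulators, Nfe2l2 passed in 1 of the 6 comparisons and Keap1 in 3. Nfe2l2, which encodes Nrf2, measured 11.90, 11.96 and 11.87 in ΔSAP, 11.93, 11.99 and 11.94 in mutB1, 11.66, 11.74 and 11.80 in FL, and 11.84, 11.92 and 11.94 in control. The FL arrays were below all others, and the other 3 lines overlapped. Nfe2l2 was higher in mutB1 than in FL by 0.22 ± 0.05 (SE, adjusted p = 0.00543), a call that was lost when any 1 mutB1 array or FL array 1 or 2 was left out (adjusted p up to 0.0245). Its changes against control did not pass, with -0.16 in FL (95% confidence interval -0.27 to -0.06, adjusted p = 0.0233), 0.05 in mutB1 and 0.01 in ΔSAP. The FL difference did pass after a further quantile normalization (adjusted p = 0.00792), with only probe sets of a mean of at least 6 tested (0.00872) and with a trended, robust eBayes (0.00596).

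Keap1, the substrate adaptor that restrains Nrf2, measured 9.67, 9.59 and 9.62 in ΔSAP, 10.12, 10.12 and 10.04 in mutB1, 9.75, 9.77 and 9.79 in FL, and 9.76, 9.71 and 9.71 in control. The mutB1 arrays were above all others, while FL and control overlapped. Keap1 was 0.37 ± 0.04 higher in mutB1 than in control (adjusted p = 6.2e-05), 0.32 ± 0.04 higher in mutB1 than in FL (adjusted p = 0.000114), and 0.47 ± 0.04 lower in ΔSAP than in mutB1 (adjusted p = 9.84e-06).

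Hmox1, which opens haem to give biliverdin, iron and carbon monoxide, rose in FL and, by less, in ΔSAP. It measured 8.91, 8.88 and 8.91 in ΔSAP, 8.40, 8.20 and 8.19 in mutB1, 9.68, 9.68 and 9.60 in FL, and 8.30, 8.32 and 8.28 in control. The FL arrays were the highest, the ΔSAP arrays lay between them and the rest without overlap, and mutB1 and control overlapped. The rise over control was 1.35 ± 0.06 in FL (SE, 2.56-fold, adjusted p = 4.84e-08) and 0.60 ± 0.06 in ΔSAP (1.52-fold, adjusted p = 2.73e-05). In mutB1 the difference from control was -0.04 (95% confidence interval -0.16 to 0.09, adjusted p = 0.737). Hmox1 was 1.39 ± 0.06 lower in mutB1 than in FL (adjusted p = 5.32e-08), 0.75 ± 0.06 lower in ΔSAP than in FL (adjusted p = 1.26e-05), and 0.64 ± 0.06 higher in ΔSAP than in mutB1 (adjusted p = 1.69e-05), so each step in the order FL, ΔSAP, then mutB1 and control passed except the last. By absolute size, 1.15% of the 19937 genes changed more than Hmox1 in FL against control and 0.978% in mutB1 against FL.

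Glutamate-cysteine ligase, the rate-limiting enzyme of glutathione synthesis, has a catalytic subunit from Gclc and a modifier subunit from Gclm. Gclm measured 10.63, 10.67 and 10.69 in ΔSAP, 10.29, 10.36 and 10.25 in mutB1, 11.01, 11.08 and 10.99 in FL, and 10.16, 10.18 and 10.17 in control. No pair of lines overlapped, and the order was that of Hmox1 with mutB1 above control. It rose by 0.85 ± 0.04 in FL (1.81-fold, adjusted p = 1.08e-07) and by 0.49 ± 0.04 in ΔSAP (adjusted p = 9.24e-06), and its change of 0.13 ± 0.04 in mutB1 did not pass (adjusted p = 0.0499).

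Gclc measured 9.80, 9.74 and 9.86 in ΔSAP, 10.07, 10.15 and 10.04 in mutB1, 10.38, 10.34 and 10.25 in FL, and 9.76, 9.70 and 9.66 in control. Here mutB1 stood above ΔSAP, the reverse of their order for Gclm, and ΔSAP overlapped control. Gclc rose by 0.62 ± 0.05 in FL (adjusted p = 8.18e-06) and by 0.38 ± 0.05 in mutB1 (adjusted p = 0.000417), and its change of 0.10 ± 0.05 in ΔSAP did not pass (adjusted p = 0.238). Between ΔSAP and mutB1 the subunits moved in opposite directions, Gclm higher in ΔSAP by 0.37 ± 0.04 (adjusted p = 7.72e-05) and Gclc lower by 0.29 ± 0.05 (adjusted p = 0.00242); the Gclc call was lost without ΔSAP array 2 or mutB1 array 2 (adjusted p = 0.012 and 0.0108). Gclc was also lower in mutB1 than in FL, by 0.24 ± 0.05 (adjusted p = 0.00669), a call that leaving out any 1 of 6 arrays ended (ΔSAP array 1, mutB1 arrays 1 and 3, FL arrays 1 and 2, or control array 2) with adjusted p of 0.011 to 0.0309, and that the fit with the replicate number as a block also ended (0.0141), as did centring the arrays (0.0261).

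Txnrd1 and Srxn1 act in the thioredoxin system, Txnrd1 as the cytosolic reductase of thioredoxin and Srxn1 as sulfiredoxin, which restores over-oxidised peroxiredoxins. Txnrd1 measured 10.45, 10.50 and 10.45 in ΔSAP, 10.25, 10.32 and 10.26 in mutB1, 10.64, 10.64 and 10.66 in FL, and 10.36, 10.21 and 10.34 in control. The FL arrays were the highest, and mutB1 overlapped control. Txnrd1 rose by 0.34 ± 0.04 in FL (adjusted p = 0.000205) and was 0.36 ± 0.04 lower in mutB1 than in FL (adjusted p = 0.000152), while its 0.16 in ΔSAP against control (adjusted p = 0.0255) did not pass. That difference passed with only probe sets of a mean of at least 6 tested (adjusted p = 0.0093) and with a trended, robust eBayes (0.00903).

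Srxn1 measured 9.70, 9.74 and 9.72 in ΔSAP, 9.93, 9.93 and 9.90 in mutB1, 10.13, 10.12 and 10.10 in FL, and 10.15, 10.13 and 10.17 in control. The ΔSAP arrays were the lowest and the mutB1 arrays next, with FL just under control. Srxn1 fell by 0.43 ± 0.03 in ΔSAP (adjusted p = 3.35e-06) and by 0.23 ± 0.03 in mutB1 (adjusted p = 0.000322), and its difference in FL was -0.04 (95% confidence interval -0.10 to 0.03, adjusted p = 0.485). Its order was therefore opposite to that of Hmox1 for ΔSAP and mutB1, with ΔSAP lower than mutB1 by 0.20 ± 0.03 (adjusted p = 0.000693). It was also lower in mutB1 than in FL, by 0.20 ± 0.03 (adjusted p = 0.000717), a call lost with each array centred on its median (adjusted p = 0.0428).

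Nqo1, a quinone reductase often used as a readout of Nrf2, did not rise in any construct line. It measured 8.43, 8.46 and 8.42 in ΔSAP, 8.36, 8.33 and 8.27 in mutB1, 8.15, 8.05 and 8.23 in FL, and 8.43, 8.44 and 8.55 in control. The FL arrays were the lowest, and ΔSAP overlapped control. Nqo1 fell by 0.33 ± 0.05 in FL (adjusted p = 0.000852), and the changes of -0.15 in mutB1 (adjusted p = 0.0788) and -0.04 in ΔSAP (adjusted p = 0.679) did not pass. Its rise of 0.29 ± 0.05 in ΔSAP over FL (adjusted p = 0.00335) was lost when any 1 ΔSAP array or FL array 1 or 2 was left out (adjusted p up to 0.0155).

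Gsta4 and Gstm1 encode glutathione transferases, which couple glutathione to electrophiles, Gsta4 acting on lipid aldehydes such as hydroxynonenal. Gsta4 measured 9.92, 9.89 and 9.94 in ΔSAP, 9.56, 9.55 and 9.59 in mutB1, 9.40, 9.39 and 9.52 in FL, and 10.23, 10.21 and 10.23 in control. No pair of lines overlapped, and all construct arrays were below control. It fell by 0.31 ± 0.04 in ΔSAP (adjusted p = 0.00037), 0.66 ± 0.04 in mutB1 (adjusted p = 1.51e-06) and 0.79 ± 0.04 in FL (adjusted p = 2.8e-07).

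Gstm1 measured 8.91, 8.97 and 8.98 in ΔSAP, 10.67, 10.67 and 10.63 in mutB1, 9.34, 9.27 and 9.45 in FL, and 10.98, 11.07 and 11.04 in control. All lines were apart, with ΔSAP and FL far below mutB1 and control. Gstm1 fell 4.22-fold in ΔSAP, by 2.08 ± 0.05 on the log2 scale (adjusted p = 1.65e-09), 1.29-fold in mutB1, by 0.37 ± 0.05 (adjusted p = 0.000344), and 3.20-fold in FL, by 1.68 ± 0.05 (adjusted p = 4.72e-09). In ΔSAP against control 0.296% of the 19937 genes had a larger absolute change. Between constructs, Gstm1 was 1.30 ± 0.05 higher in mutB1 than in FL (adjusted p = 3.2e-08), the opposite of Hmox1, and 0.40 ± 0.05 lower in ΔSAP than in FL (adjusted p = 0.000295), in the same direction as Hmox1.

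Hmox1 was then set against each other target in a second limma fit, of the difference between Hmox1 and every other probe set on the same array. In FL against control the change of Hmox1 exceeded that of all 7 targets, where 97.7% of the 34759 other probe sets differed from it, so that this count reflects how far Hmox1 itself moved. The smallest gap was to Gclm, 0.50 ± 0.07 (SE, adjusted p = 2.42e-05), followed by Gclc at 0.74 ± 0.08 (adjusted p = 9.25e-07) and Txnrd1 at 1.01 ± 0.08 (adjusted p = 8.6e-08). The gap to Nqo1 was 1.68 ± 0.08 (adjusted p = 1.84e-09) and to Gstm1 3.03 ± 0.08 (adjusted p = 2.13e-10). In ΔSAP against control 6 of 7 targets differed from Hmox1 (84.7% of other probe sets), the exception being Gclm, whose gap was 0.11 with a 95% confidence interval of -0.05 to 0.27 (adjusted p = 0.18). In mutB1 against control, where Hmox1 itself did not pass, 2 of 7 differed (6.0% of other probe sets): Gclc was higher than Hmox1 in its change, the gap being -0.42 ± 0.08 (adjusted p = 0.0038), and Gsta4 lower, by a gap of 0.62 ± 0.08 (adjusted p = 0.000323). Leaving out mutB1 array 2 or 3 or any 1 control array reduced these 2 to 1.

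**Figure D3:**
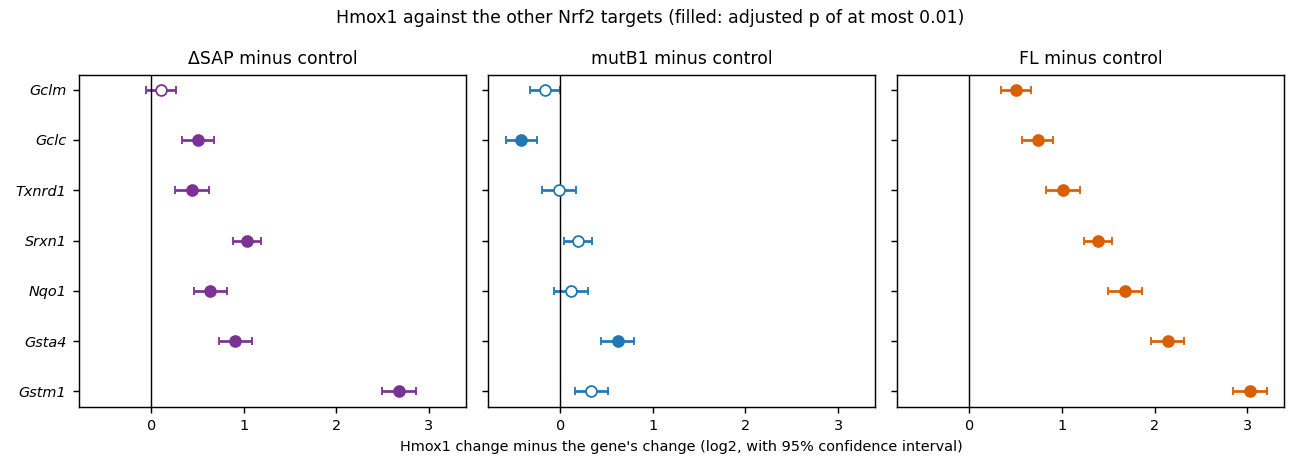
Change of Hmox1 minus the change of each other target gene, on the log2 scale with its 95% confidence interval, in ΔSAP, mutB1 and FL against control; filled points have an adjusted p of at most 0.01. In the FL panel every gap lies to the right of 0, from 0.50 for Gclm to 3.03 for Gstm1, and in the mutB1 panel the 2 filled points are Gclc at -0.42 and Gsta4 at 0.62.

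In mutB1 against FL all 7 targets differed from Hmox1, whose change was the lowest (98.3% of other probe sets differed), with gaps from -0.67 ± 0.07 for Gclm (adjusted p = 1.5e-06) to -2.70 ± 0.08 for Gstm1 (adjusted p = 3.14e-10). In ΔSAP against FL 6 of 7 differed (92.4%), and Gclc did not, with a gap of -0.23 ± 0.08 (adjusted p = 0.0128). All 7 differed there without mutB1 array 1 or 2. In ΔSAP against mutB1 all 7 differed (87.1%), the smallest gaps being 0.27 ± 0.07 for Gclm (adjusted p = 0.00376) and 0.29 ± 0.08 for Gsta4 (adjusted p = 0.00549). That count was 5 or 6 when any 1 ΔSAP array or mutB1 array 2 or 3 was left out. All these gaps share the Hmox1 values. Over the 4 line means, each centred on the gene's own mean, the root mean square distance from Hmox1 was 0.245 for Gclm, 0.419 for Txnrd1, 0.449 for Gclc, 0.576 for Srxn1, 0.665 for Nqo1, 0.779 for Gsta4 and 1.35 for Gstm1. The closest pair among the members was Nqo1 and Nfe2l2, at 0.0835. This distance depends on range as well as order, and the line means of these genes spanned only 0.33 and 0.22. Both were lowest in FL, but Nqo1 was highest in control and Nfe2l2 in mutB1. Txnrd1 had the same order of lines as Hmox1, over a range of 0.36 beside 1.39 for Hmox1.

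Outside the members, the genes nearest to Hmox1 by this distance were sought among 901 genes whose line means spanned at least 1 log2 unit. Stc2, which encodes the secreted glycoprotein stanniocalcin 2, was at 0.0387 and averaged 7.40 in ΔSAP, 6.79 in mutB1, 8.19 in FL and 6.74 in control. Ppp1r15a, a regulatory subunit of the phosphatase that acts on initiation factor eIF2, was at 0.0531 and averaged 8.38 in ΔSAP, 7.85 in mutB1, 9.10 in FL and 7.81 in control. Next came the keratin Krt17 at 0.0966, Cysltr1 at 0.128, Ifrd1 at 0.130, the transcription factor Atf3 at 0.136, the alcohol dehydrogenase Adh7 at 0.143 and Angptl4 at 0.145, with Krt17 and Cysltr1 low in at least 1 line. Each of these 8 was nearer to Hmox1 than the nearest member, Gclm, was. The choice required a wide range of line means, which Gclm does not have. For Gstm1 the nearest gene was Prkch at 0.114, a protein kinase C, followed by Ccn5 at 0.176 and the related transferase Gstm7 at 0.179. Next came Ramp1 at 0.197, Sardh at 0.248, Jag2 at 0.266, Pdzrn3 at 0.280 and the related transferase Gstm3 at 0.282. Of these, Sardh and Gstm3 were low in at least 1 line.

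**Figure D4:**
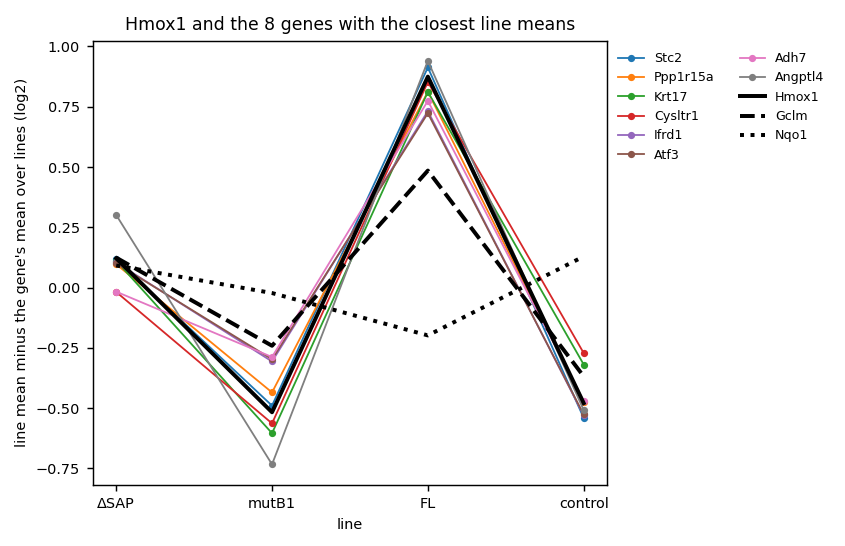
Line means of Hmox1 (thick line), of the 8 genes nearest to it (thin lines) and of Gclm and Nqo1 (dashed and dotted), each minus the gene's own mean over the 4 lines, on the log2 scale, with ΔSAP, mutB1, FL and control from left to right. The 8 genes were picked for this likeness; Gclm is also highest in FL and next in ΔSAP, over a smaller range and with mutB1 above control, and Nqo1 is lowest in FL.

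The wider pathway was followed through 7 lists with 135 measured genes. In FL against control 30 of them rose and 46 fell, with a median change of -0.08 beside -0.03 over all genes, of which 12.6% rose and 15.0% fell when each gene is represented once. Glutathione transferases other than the 2 members were mostly lower in the FL and ΔSAP lines. Of 19 measured, 2 rose and 11 fell in ΔSAP, 1 rose and 7 fell in mutB1, and 3 rose and 10 fell in FL. Of all genes, 9.38% rose and 11.7% fell in ΔSAP, and 8.34% rose and 10.4% fell in mutB1. Each of these counts moved by at most 1 with the arrays centred on their medians or after a further quantile normalization. The single rise in mutB1, of Mgst1, failed with centred arrays and without any 1 mutB1 or control array. Their median change was -0.39 in ΔSAP, -0.21 in mutB1 and -0.47 in FL, beside -0.06, -0.01 and -0.03 over all genes. Gstk1, a mitochondrial and peroxisomal transferase, fell in every construct line, by 1.44 ± 0.08 in ΔSAP, 1.49 ± 0.08 in mutB1 and 1.53 ± 0.08 in FL (adjusted p = 7.74e-07, 5.68e-07 and 3.26e-07), and no pair of construct lines passed for it. Gstm7 fell by 1.65 ± 0.07 in ΔSAP (adjusted p = 5.99e-08) and 1.66 ± 0.07 in FL (adjusted p = 3.37e-08), and was 1.31 ± 0.07 higher in mutB1 than in FL (adjusted p = 2.71e-07). Gstm3 fell by 1.38 in ΔSAP and 1.17 in FL, to means that were low, and Gstm5 fell in every construct line, by 0.82 in ΔSAP, 0.83 in mutB1 and 0.92 in FL. The Gstm genes are close copies of each other, so their probe sets may share signal and are not independent. The omega transferase Gsto2 went the other way, rising by 0.55 ± 0.09 in ΔSAP (adjusted p = 0.00103) and 0.86 ± 0.09 in FL (adjusted p = 3.1e-05), and was 0.96 ± 0.09 lower in mutB1 than in FL (adjusted p = 1.84e-05).

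**Figure D5:**
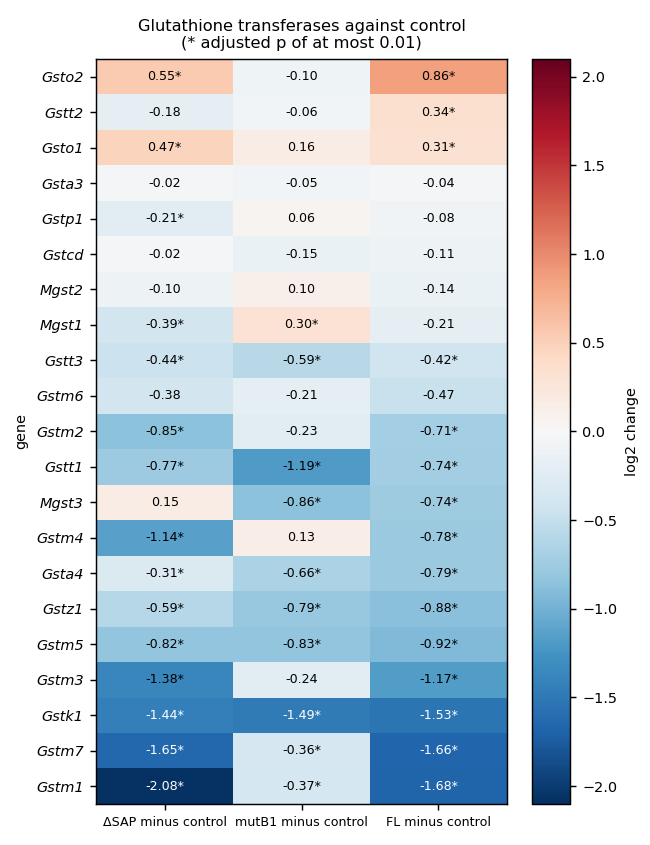
Log2 change of the 19 listed glutathione transferases and of the members Gsta4 and Gstm1, 1 gene per row ordered by the FL change, in ΔSAP, mutB1 and FL against control; red is higher and blue lower than control, and an asterisk marks an adjusted p of at most 0.01. Gstk1 is blue in all 3 columns, whereas Gstm1, Gstm7 and Gstm3 are deep blue in ΔSAP and FL and pale in mutB1.

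Genes of glutathione supply and breakdown moved in both directions, with 6 rising and 6 falling of 25 in FL, 4 and 5 in mutB1, and 5 and 4 in ΔSAP against control. Over all genes the shares rising and falling were 12.6% and 15.0% in FL, 8.34% and 10.4% in mutB1, and 9.38% and 11.7% in ΔSAP. In ΔSAP the rises numbered 2 with centred arrays and 3 without ΔSAP array 2 or 3 or control array 1 or 3, and the falls 2 without control array 1. Chac1, which degrades glutathione, rose by 1.30 ± 0.07 in ΔSAP (adjusted p = 3.77e-07), 0.89 ± 0.07 in mutB1 (adjusted p = 6.34e-06) and 1.73 ± 0.07 in FL (adjusted p = 2.95e-08). Cth, which makes cysteine from cystathionine, rose by 0.69 ± 0.04 in mutB1 and 0.67 ± 0.04 in FL (adjusted p = 1.2e-06 and 9.68e-07) and was 0.74 ± 0.04 lower in ΔSAP than in FL (adjusted p = 2.58e-06). Gss, which completes glutathione synthesis, fell in every construct line, by 0.41 ± 0.04 in ΔSAP, 0.51 ± 0.04 in mutB1 and 0.55 ± 0.04 in FL (adjusted p = 3.48e-05, 7.28e-06 and 2.44e-06). Oplah, which recycles oxoproline to glutamate, fell by 0.83 ± 0.10 in FL to a low mean of 6.28 (adjusted p = 9.51e-05). Some familiar Nrf2 targets on the lists were looked up after their values were seen: the cystine transporter Slc7a11 changed by -0.18 in ΔSAP, -0.01 in mutB1 and 0.09 in FL, none of which passed, the peroxiredoxin Prdx1 by 0.09, 0.01 and 0.01 in the same order, none of which passed, and glutathione reductase, Gsr, by 0.19, -0.15 and 0.04, of which only the ΔSAP rise passed (adjusted p = 0.00501). Others on the lists moved further in FL, in both directions. Abcc1 averaged 10.42 in FL against 9.97 in control, Akr1b8 9.58 against 9.19 and Ftl1 10.21 against 9.82. The FL arrays of Ftl1 were uneven, at 10.10, 10.40 and 10.13. Lower in FL were Cbr1, at 9.02 against 9.56, and Abcc3, at 8.95 against 9.78. For these genes, from Abcc1 to Abcc3, only levels are given, not whether the change passed.

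Of 19 genes of the thioredoxin and peroxiredoxin system, 3 rose and 9 fell in FL against control (1 and 9 with centred arrays). In that comparison 12.6% of all genes rose and 15.0% fell. The sestrins, stress-induced regulators of TORC1, parted: Sesn2 rose by 1.74 ± 0.05 in FL (adjusted p = 5.97e-09), 0.75 ± 0.05 in mutB1 and 0.89 ± 0.05 in ΔSAP, whereas Sesn1 fell by 1.09 ± 0.07 in FL (adjusted p = 1.28e-06) and Sesn3 by 1.13 ± 0.05 (adjusted p = 1.07e-07). Txnip, which inhibits thioredoxin, fell by 1.10 ± 0.04 in ΔSAP (adjusted p = 5e-08), 0.41 ± 0.04 in mutB1 and 0.50 ± 0.04 in FL. Osgin1, a growth inhibitor that Nrf2 is known to induce, fell by 0.85 ± 0.04 in mutB1 (adjusted p = 2.35e-07) and 0.20 ± 0.04 in FL (adjusted p = 0.00424) against control. Among 10 genes of NADPH supply, 3 rose and 3 fell in FL, the mitochondrial folate enzyme Mthfd2 rising by 1.80 ± 0.04 (adjusted p = 1.64e-09), and malic enzyme Me1 by 0.39 ± 0.05 (adjusted p = 9.22e-05), while Idh1 fell by 0.57 ± 0.04 (adjusted p = 1.56e-06).

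Hmox1 acts within haem and iron handling, where 5 of 21 other genes rose and 7 fell in FL against control. Over all genes, 12.6% rose and 15.0% fell. Cpox, an enzyme of haem synthesis, had the order of lines of Hmox1: it rose by 0.55 ± 0.06 in ΔSAP (adjusted p = 7.23e-05) and 0.86 ± 0.06 in FL (adjusted p = 1.67e-06), and was 1.13 ± 0.06 lower in mutB1 than in FL (adjusted p = 3.31e-07). The iron exporter ferroportin, Slc40a1, fell by 1.67 ± 0.09 in FL (adjusted p = 3.04e-07) and 1.10 ± 0.09 in mutB1 (adjusted p = 1.06e-05), to low means of 5.27 and 5.84. The iron importer Slc11a2 rose by 0.56 ± 0.04 in ΔSAP, 0.32 ± 0.04 in mutB1 and 0.69 ± 0.04 in FL. Blvrb, a biliverdin reductase that acts after haem oxygenase, fell by 0.78 ± 0.06 in ΔSAP (adjusted p = 8.73e-06) and 0.41 ± 0.06 in FL (adjusted p = 0.000585), with 0.09 in mutB1, which did not pass (adjusted p = 0.423).

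Detoxication enzymes and efflux pumps split evenly in FL, with 7 of 26 rising and 7 falling against control, beside 12.6% and 15.0% of all genes. Ephx1, the microsomal epoxide hydrolase, fell by 1.28 ± 0.08 in ΔSAP, 1.52 ± 0.08 in mutB1 and 1.43 ± 0.08 in FL, and the aldehyde dehydrogenase Aldh3a1 by 1.12 ± 0.07, 1.43 ± 0.07 and 1.23 ± 0.07 in the same order (each adjusted p at most 1.34e-06). The efflux pump Abcg2 rose by 2.07 ± 0.09 in mutB1 (adjusted p = 7.45e-08), 1.34 ± 0.09 in FL (adjusted p = 1.35e-06) and 0.49 ± 0.09 in ΔSAP (adjusted p = 0.00248), over a low control mean of 5.93. Of 15 other regulators of Nrf2, 3 rose and 4 fell in FL against control, where 12.6% and 15.0% of all genes did. The widest change among them was that of Nfe2l3, a transcription factor related to Nrf2, which rose by 1.55 ± 0.10 in ΔSAP (2.94-fold, adjusted p = 1.91e-06) and by 0.64 ± 0.10 in FL (adjusted p = 0.00067) over a low control mean of 6.22. It was 1.58 ± 0.10 higher in ΔSAP than in mutB1 (adjusted p = 1.54e-06), where its mean of 6.20 was also low. Mafk, a small Maf partner of Nrf2, rose by 0.45 ± 0.06 in ΔSAP and 0.67 ± 0.06 in FL and was 0.55 ± 0.06 lower in mutB1 than in FL (adjusted p = 0.000291, 1.17e-05 and 5.57e-05). Bach1, the known repressor of Hmox1, fell in every construct line, by 0.23 ± 0.04 in ΔSAP (adjusted p = 0.0013), 0.18 ± 0.04 in mutB1 (adjusted p = 0.00601) and 0.31 ± 0.04 in FL (adjusted p = 0.000107). The mutB1 fall of Bach1 was lost with centred arrays and without ΔSAP array 2, FL array 1, or any 1 mutB1 or control array. The related Bach2 fell by 0.68 ± 0.06 in FL to a low mean of 6.31 (adjusted p = 1.43e-05).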

How the data were processed

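Biotin-labelled cDNA from 100 ng of total RNA was hybridised to Affymetrix Mouse Gene 1.0 ST arrays, 12 in all, per the labels' protocols. The deposited log2 values per probe set were computed by the authors with RMA, which subtracts background, equalises the arrays' distributions and summarises probes, in the affy package, per the series design text, with R 2.10.0, per the submitters' processing notes. No probe set definition, scan batch or genome build is stated in the labels used here. The values carry no detection call, and precision is limited by 3 arrays per line.

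Of 34760 probe sets, the platform annotation of 2016 gave 21640 a single symbol, 1321 several and 11799 none; 21553 of the 21640 were updated through RefSeq (GRCm38.p6), and no name was taken from a probe set with several. For a gene with several probe sets the brightest on average was used. All 12 arrays were fitted in limma 3.58.1 (R 4.3.3; lmFit, eBayes) with 4 line means and no covariate, and p-values were adjusted by Benjamini and Hochberg over all probe sets in each of 6 comparisons. The threshold of 0.01 and the added filters are those of the series design text. A second fit used the per-array difference between Hmox1 and each other probe set. Both were also run on simulated data, in which the noise of each probe set was independent. That run cannot speak to errors shared by the probe sets of an array, or to a construct represented by a single line. Alternatives covered normalization, filters, the prior, the arrays fitted, a replicate block and leaving out each array.

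Members and gene lists were chosen with earlier results of these data known. From each list, up to 4 genes with the largest absolute change among those past the threshold in a comparison could be named, and the 8 nearest genes by root mean square difference of centred line means. Same-numbered arrays of different lines deviated from their line means with correlations of -0.205 to 0.168 (median -0.016, over 0.1 in 2 of 18 pairs), so the numbers were not taken to pair samples. Promoter windows came from RefSeq.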

Additional observations from a re-analysis of the deposited data

How the results depend on the processing

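Hmox1 kept its direction and its side of the threshold in all 6 comparisons under every alternative run except the fold filter of the design text, which its changes in ΔSAP against FL, control and mutB1 did not reach, with a change of 1.34 to 1.38 in FL against control, 0.59 to 0.61 in ΔSAP against control and -1.46 to -1.35 in mutB1 against FL when 1 array was left out. With only the arrays of the compared lines in the fit, which leaves fewer samples, 5 members passed in mutB1 against FL in place of 8, and 1 target in place of 2 differed from Hmox1 in mutB1 against control; with adjusted p of 0.0102 to 0.0289, this fit ended the calls of Gclc, Srxn1 and Nfe2l2 in mutB1 against FL, Nqo1 and Gstm1 in ΔSAP against FL, Nqo1 in FL against control, and Gclc and Srxn1 in ΔSAP against mutB1. Calls were gained, with adjusted p of 0.00357 to 0.00967, for Txnrd1 in ΔSAP against FL, mutB1 and control, Nfe2l2 in ΔSAP against FL and FL against control, and Keap1 in ΔSAP against FL, each under at least the level minimum of 6 and the trended, robust eBayes, and for Gsta4 in mutB1 against FL without FL array 3. Leaving out 1 array gave 1 to 2 such targets in mutB1 against control, 5 to 7 in ΔSAP against mutB1, 6 to 7 in ΔSAP against FL, 6 to 9 members in mutB1 against FL and 6 to 8 in ΔSAP against FL. The fold and level filters of the design text left 2 members in mutB1 against FL, 0 in ΔSAP against FL, 2 in FL against control, 0 in mutB1 against control, 1 in ΔSAP against control and 1 in ΔSAP against mutB1. The signs that turned all belonged to differences near 0 that had not passed: Keap1 in FL against control (-0.004 with centred arrays), Txnrd1 in mutB1 against control (-0.0734 to 0.003 with 1 array left out), Nqo1 in ΔSAP against control (-0.0606 to 0.0028) and Nfe2l2 in ΔSAP against control (-0.0059 with centred arrays, -0.003 after quantile normalization, and -0.0209 to 0.0295 with 1 array left out, -0.0144 without ΔSAP array 2); the cause was not tested. With the replicate number as a block, 7 members passed in mutB1 against FL, Gclc being lost with an adjusted p of 0.0141, and no other call on a member changed. In all, 1373 of 1440 recomputed member results were unchanged. For a single gene this meant keeping its side and direction, and for a count staying within a factor of 1.5. Among results of single members other than Hmox1, 1026 of 1080 were unchanged. Of 1176 counts over the gene lists, recomputed with settings chosen after seeing the data, 1057 stayed within a factor of 1.5. With 3 arrays per line and no detection call, a small change or one at a low mean may be missed or understated.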
